A study of Mus musculus with 1504 samples.

Results

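The Aqp1 cells of mouse lung described here are 53 single cells, out of 374 in the Mural3 column set and 1504 in the whole table. Each held at least 500 CPM of Dcn, the proteoglycan decorin of fibroblasts, and at least 100 CPM of Aqp1, the water channel aquaporin-1. Each also had under 10000 CPM of the epithelial genes Sftpc and Scgb1a1 summed, and under 50 CPM of the collagen IV genes Col4a3 and Col4a4 summed. CPM is the usual normalised read count of a gene, its reads relative to all reads of the cell. The comparison cells are the 260 other Mural3 cells within the Dcn and epithelial limits: 45 at or above the Col4a3 and Col4a4 limit and 215 with neither signature. The cells were chosen by these measured levels, so the differences between the kinds are descriptions without a test.

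The study sorted fluorescent lung cells of adult C57BL/6 mice, untreated as far as the labels say, into 384-well plates and sequenced full-length polyadenylated transcripts with SMART-seq2. Ages differ between the sources, with 12 to 15 weeks for the samples and 10 to 19 weeks in the design. The labels name 769 cells of Cldn5(BAC)eGFP mice, 374 of Pdgfrb(BAC)eGFP mice and 361 of Pdgfrb(BAC)eGFP/NG2dsRed mice, where a bacterial artificial chromosome drives the green reporter from the named gene. Mural3 has as many columns as the Pdgfrb(BAC)eGFP label has cells, but its column names give no reporter, animal, plate or date, so Mural3 counted as 1 sample. Pdgfrb encodes a growth factor receptor of pericytes, smooth muscle and fibroblasts, so a sort on its reporter takes in all of them.

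Fibroblasts of the lung lie around bronchi and vessels, in the alveolar wall and under the pleura, and differ in the matrix they lay down and the signals they send. WNT proteins act through Frizzled and LRP receptors, R-spondins strengthen that signal, and Notum, Wif1 and the Sfrp proteins are secreted inhibitors of it. BMP proteins are secreted ligands of the TGF-beta family that act through type I and type II receptors and induce the Id genes. Aqp1 in the lung is best known from endothelium, where it passes water across the cell membrane.

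Depth was alike on both sides. The Aqp1 cells held 101199 to 543922 reads, with a median of 374236, and the other fibroblasts 126320 to 600017, with a median of 374221. After thinning each cell to 50000 reads, the median number of genes with a read was 3295 in the Aqp1 cells and 3162 in the others. The wells were not spread alike: 36 of the 53 Aqp1 cells (67.9%) lay in plate columns 13 to 24, against 35.6% of the cells with Col4a3 and Col4a4 and 47.4% of those with neither. Only 5 Aqp1 cells lay in plate rows A to D. The part of plate position in the differences below was not tested, and without rows A to D 204 of the 238 genes called higher were called again.

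Aqp1 itself (chr6:55336432-55348555, plus strand, GRCm38 in the GENCODE annotation) ran from 129 through a median of 1593 to 13524 CPM per Aqp1 cell. The summed level was 2909 CPM (95% counting interval 2885 to 2933) in the Aqp1 cells and 7.57 CPM in the others, as the rule requires. The cells nearest to the limit held 94.4, 49.8 and 37.7 CPM below it and 129, 141 and 145 CPM above it. Of the 260 other fibroblasts, 212 had no Aqp1 read, and 3 of the 45 cells with Col4a3 and Col4a4 held 100 CPM or more. In the endothelial column sets, 96.9% of cells held an Aqp1 read after thinning, at a summed 3097 CPM against 2909 CPM in the Aqp1 cells.

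The cells carried fibroblast transcripts. Col1a1, the main chain of collagen I, stood at 5101 CPM in the Aqp1 cells and 7175 CPM in the others. Pdgfra, a receptor that marks fibroblasts, stood at 709 and 571 CPM, and 90.6% of Aqp1 cells held a read of it after thinning. The eGFP transcript stood at 238 and 252 CPM. Dcn was lower in the Aqp1 cells, at a median of 11161 CPM against 31079 CPM, both within the limit that chose them.

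Endothelial transcripts were present at low levels. Of 12 endothelial markers other than Aqp1, none passed the size rule defined below as higher and Tek, an angiopoietin receptor, passed it as lower, at 64.8 against 179 CPM, and its log2 difference went from -1.46 to -2.13 without the highest cell of each side. Their summed level per cell ran from 0 through 166 to 3882 CPM in the Aqp1 cells and from 0 through 281 to 1826 CPM in the others. All 12 had reads on both sides, and the median log2 difference of the 7 at 10 CPM or more on a side was 1.75, with 5 of the 7 above 0. After thinning, 6 of 53 Aqp1 cells and 41 of 260 others held a read of 3 or more of these markers, and 1 Aqp1 cell held all 12. That cell shows in the sums: 1 cell gave 78.3% of the Aqp1 cells' reads of Cldn5, an endothelial tight junction gene at 23.0 against 1.52 CPM. Without the cells holding 3 or more endothelial markers, 47 Aqp1 cells were left and 212 of the 238 genes called higher were called again. The part of endothelial RNA in the differences was otherwise not tested, and no caller for doublets was run.

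Pericyte and smooth muscle markers gave 1 call. Of 11 pericyte markers only Lamc3, a laminin chain, passed as higher, while Higd1b and Rgs5, more specific to pericytes, stood at 0.104 and 0 CPM. The summed pericyte list ran from 0 through 432 to 11543 CPM per Aqp1 cell and from 0 through 73.7 to 10042 CPM in the others, with sums of 698 and 198 CPM. Of these, Lamc3 gave 368 and 33.2 CPM and Postn 181 and 49.1 CPM, and 99.4% of the Aqp1 cells' Postn reads came from 1 cell. The median log2 difference of the 5 pericyte markers at 10 CPM or more on a side was 0.83, with 4 above 0, and the part of pericyte RNA in the differences was not tested. None of 11 smooth muscle markers passed, with Myh11 at 1.25 and 2.68 CPM and Cnn1 without a read in the Aqp1 cells. The summed smooth muscle list stood higher in the Aqp1 cells, at 378 against 243 CPM, with medians per cell of 234 and 121 CPM. Its median log2 difference over the 4 markers at 10 CPM or more on a side was 0.56, with 3 above 0. The part of smooth muscle RNA in the differences was not tested. Of 6 perineurial markers Cldn1, a tight junction gene, passed as higher, at 217 against 57.1 CPM with reads in 30 of 53 and 61 of 260 cells. The summed list had a median per cell of 111 against 0 CPM, but its sums of 243 and 85.2 CPM were mostly Cldn1. Of the 2 perineurial markers at 10 CPM or more on a side 1 was above 0. No marker on the epithelial, leukocyte, mesothelial, Schwann cell, cartilage, lymphatic, erythroid or proliferation lists passed in either direction.

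**Figure D1:**
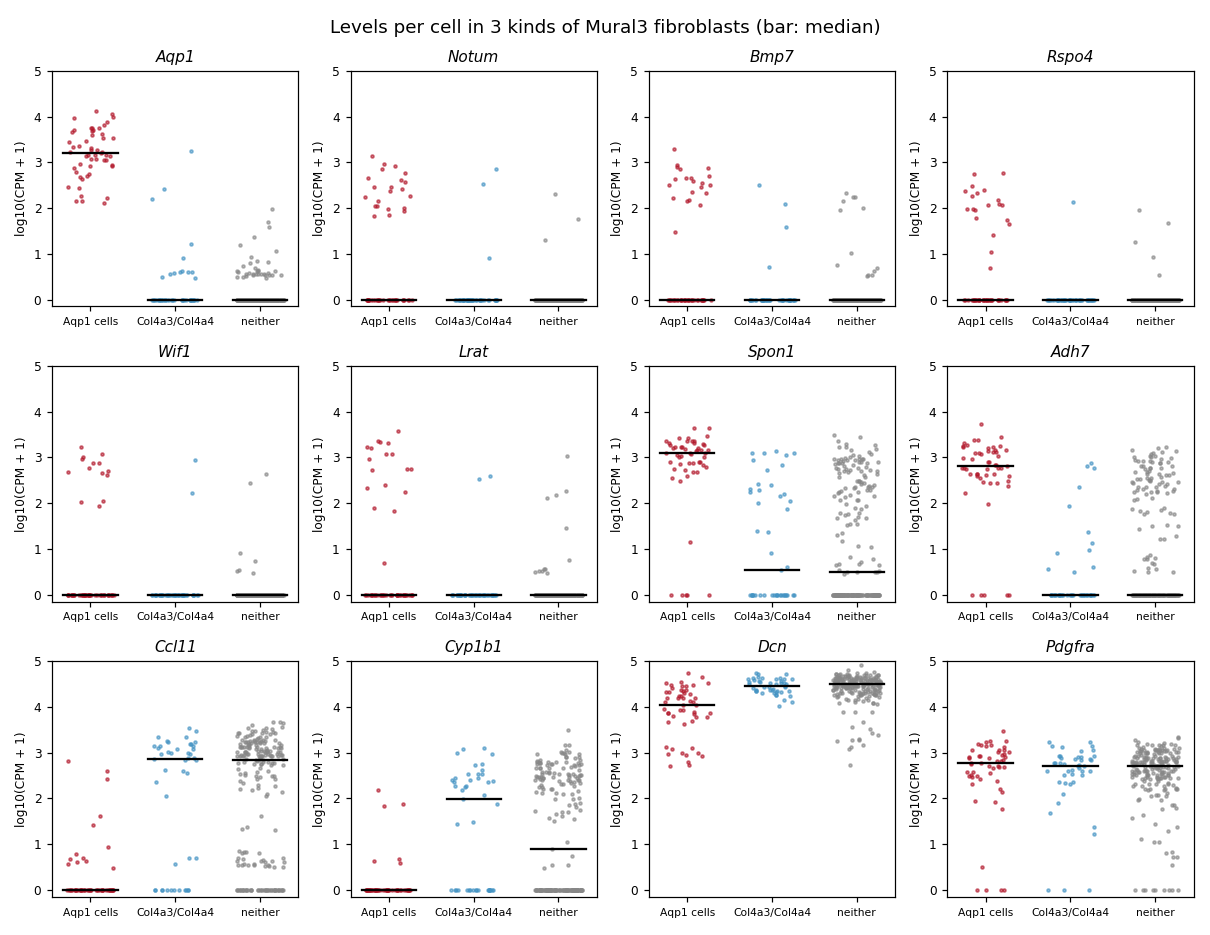
CPM per cell, plotted as log10(CPM + 1), of 12 genes in the 53 Aqp1 cells (red), the 45 cells with Col4a3 and Col4a4 (blue) and the 215 cells with neither (grey), where each point is a cell and the bar the median. Notum, Bmp7, Rspo4, Wif1 and Lrat were read in some Aqp1 cells and few others, Spon1 and Adh7 in 48 of 53, and Ccl11 in 13 of 53.

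For each gene, reads were summed over the cells of a kind. A call needed a 2-fold difference between the sums, a level of 50 CPM on the higher side, and a read in 25% of the thinned cells there. Against the other Mural3 fibroblasts 238 of 21941 genes were higher in the Aqp1 cells (1.08%) and 138 were lower (0.629%), together 1.71%. Since these cells were chosen in the same contrast, the counts only describe it. Counts on gene lists below were not tested against these shares. Of the 21941 genes, 9725 reached 10 CPM on a side, and several lists hold mostly such genes. Scaling with TMM factors, which lowers every difference by 0.09 on the log2 scale, gave 183 higher and 170 lower, so the share called higher among the calls went from 63.3% to 51.8%. With the highest cell of each side left out gene by gene, 163 of the 238 remained higher, no others were added, and 198 were lower, 133 of them among the 138. That step takes the highest of 53 cells from the Aqp1 side and of 260 from the other. It therefore tends to lower the Aqp1 sums more, and a further fall under it does not strengthen a lower call. Bounds after a fold below are 95% counting intervals, which leave out the spread between cells and between animals. For genes read in few cells, such as Rspo4, leaving out 1 cell moved the fold beyond these bounds.

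**Figure D2:**
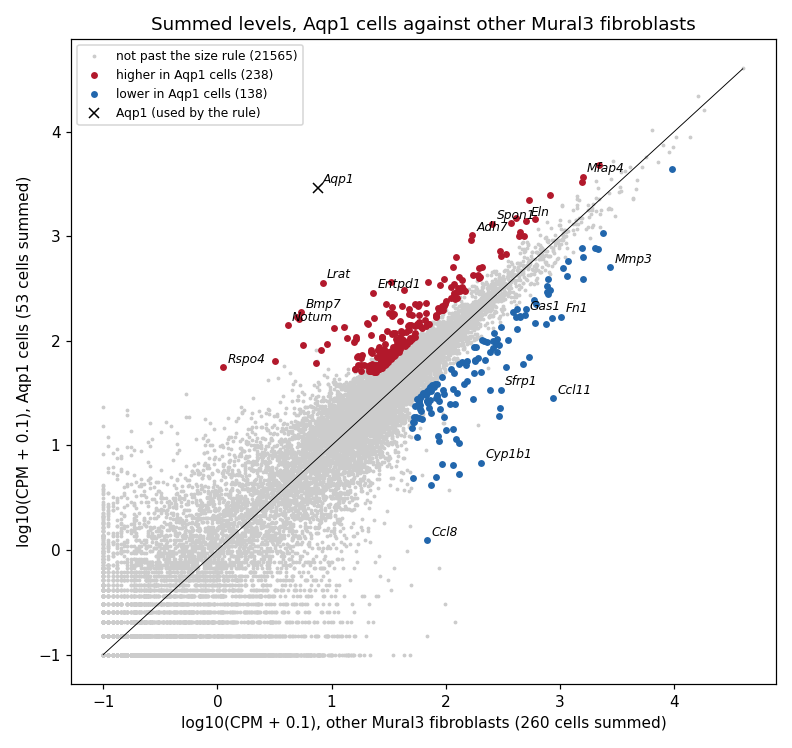
Summed CPM of each gene in the 53 Aqp1 cells (vertical axis) against the 260 other Mural3 fibroblasts (horizontal axis), both as log10(CPM + 0.1), with red points for the 238 genes called higher and blue for the 138 called lower. The line marks equal levels, and Aqp1, which the rule used, is a cross.

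Among the genes called higher, Rspo4, an R-spondin, had the largest fold. It ran from 0 through a median of 0 to 571 CPM per Aqp1 cell, with a read in 20 of 53 cells, and reached 138 CPM in the others, with a read in 6 of 260. Its sums, 55.6 and 1.02 CPM, differed 54.6-fold (44.3 to 67.9). Without a single other fibroblast, the cell with Col4a3 and Col4a4 that had 1767 CPM of Aqp1, the log2 differences of Rspo4, Notum and Wif1 went from 5.77, 5.13 and 5.12 to 6.41, 6.05 and 6.05. Most Aqp1 cells thus had no Rspo4 read, and the difference lies in the 20 that did. Of 14 WNT ligands and R-spondins, Rspo4 alone passed as higher, where 1.08% of all genes did. Wnt5a alone passed as lower, at 36.5 against 77.5 CPM, where 0.629% of all genes did. Rspo1, Rspo2 and Rspo3 stood at 18.1, 2.02 and 0 CPM in the Aqp1 cells and 38.1, 7.26 and 17.8 CPM in the others. The median log2 difference over the 8 of these genes at 10 CPM or more on a side was -1.08, against 0.09 over all 9725 such genes.

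Secreted WNT inhibitors divided. Notum, an enzyme that removes the lipid which WNT proteins need, ran from 0 through 0 to 1341 CPM per Aqp1 cell, with a read in 22 of 53. Among the others it reached 716 CPM and was read in 6 of 260. Its sums of 140 and 4.01 CPM differed 34.9-fold (31.3 to 38.9), and the log2 difference of 5.13 became 7.23 without the cells with endothelial markers, 6.71 without rows A to D and 5.86 without the highest cell of each side. Wif1, which binds WNT proteins outside the cell, summed to 168 and 4.83 CPM, was read in 14 of 53 and 9 of 260 cells and differed 34.8-fold (31.6 to 38.5), and its log2 difference of 5.12 became 5.77 without rows A to D and 5.73 without the highest cell of each side. Notum overlaps Notumos and Rspo4 overlaps Rspo4os in the annotation, and SMART-seq2 reads carry no strand, so reads of each pair cannot be told apart.

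The Sfrp inhibitors went the other way. Sfrp1 was read in 20 of 53 Aqp1 cells and in 182 of 260 others, and its sums of 34.0 and 303 CPM differed 8.92-fold (8.26 to 9.66). Sfrp4, at 19.0 and 290 CPM, was 15.2-fold lower (13.7 to 16.9), and a single other fibroblast reached 30194 CPM of it. Dkk2, which blocks the LRP coreceptors, stood at 53.4 and 9.28 CPM but in 15.1% of Aqp1 cells after thinning, under the share needed. In all 2 of 14 inhibitors were higher and 2 lower, where 1.08% and 0.629% of all genes were.

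Receptors and feedback targets of WNT signalling mostly stayed within 2-fold or under the limits. Of 21, only Nkd2, a target that dampens the pathway, passed, at 70.5 against 16.7 CPM, where 1.08% of all genes were higher. Fzd1 stood at 205 and 160 CPM and Lrp6 at 115 and 148 CPM. Lgr5, an R-spondin receptor, stood at 56.8 and 3.75 CPM, with reads in 14 of 53 and 5 of 260 cells, under the share needed, and Axin2 at 15.4 and 5.15 CPM. The median log2 difference over 15 of these genes was 0.03. After thinning Lgr5 was read together with Notum in 10 Aqp1 cells and without it in 1.

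Among the BMP ligands called, Bmp7 had the largest fold. It ran from 0 through 0 to 1908 CPM per Aqp1 cell, with a read in 21 of 53, and to 319 CPM in the others, with a read in 17 of 260. The sums, 187 and 5.25 CPM, differed 35.6-fold (32.4 to 39.1). Bmp4 was more widely read, in 41 of 53 Aqp1 cells and 141 of 260 others, at 313 and 142 CPM, and Bmp5 stood at 195 and 93.6 CPM. Gdf10, a ligand also called BMP3B, was 5.12-fold lower (4.94 to 5.31), at 166 against 851 CPM, and Bmp1, which despite its name is a protease that trims procollagen, was 2.21-fold lower. Of 11 genes on the BMP ligand list 3 were thus higher and 2 lower, where 1.08% and 0.629% of all genes were.

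Extracellular BMP inhibitors also divided. Nbl1, a secreted protein of the DAN family that binds BMP ligands, was read in all 53 Aqp1 cells, from 22.1 through 1732 to 8005 CPM, and in 249 of 260 others with a median of 457 CPM. The sums of 2494 and 811 CPM differed 3.08-fold (3.04 to 3.11). Fst, follistatin, was lower at 20.2 against 74.0 CPM, and Bmper had no read in the Aqp1 cells and 19.0 CPM in the others. The log2 difference of Fst went from -1.87 to -2.48 without the highest cell of each side. Of 15 receptors, Smad genes and targets, only Id2 passed, as lower, where 0.629% of all genes did. It was 5.97-fold lower (5.62 to 6.35) at 55.9 against 334 CPM. Id1 and Id3, targets of the same ligands, stood at 37.2 and 626 CPM against 55.0 and 1113 CPM, which did not reach 2-fold.

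**Figure D3:**
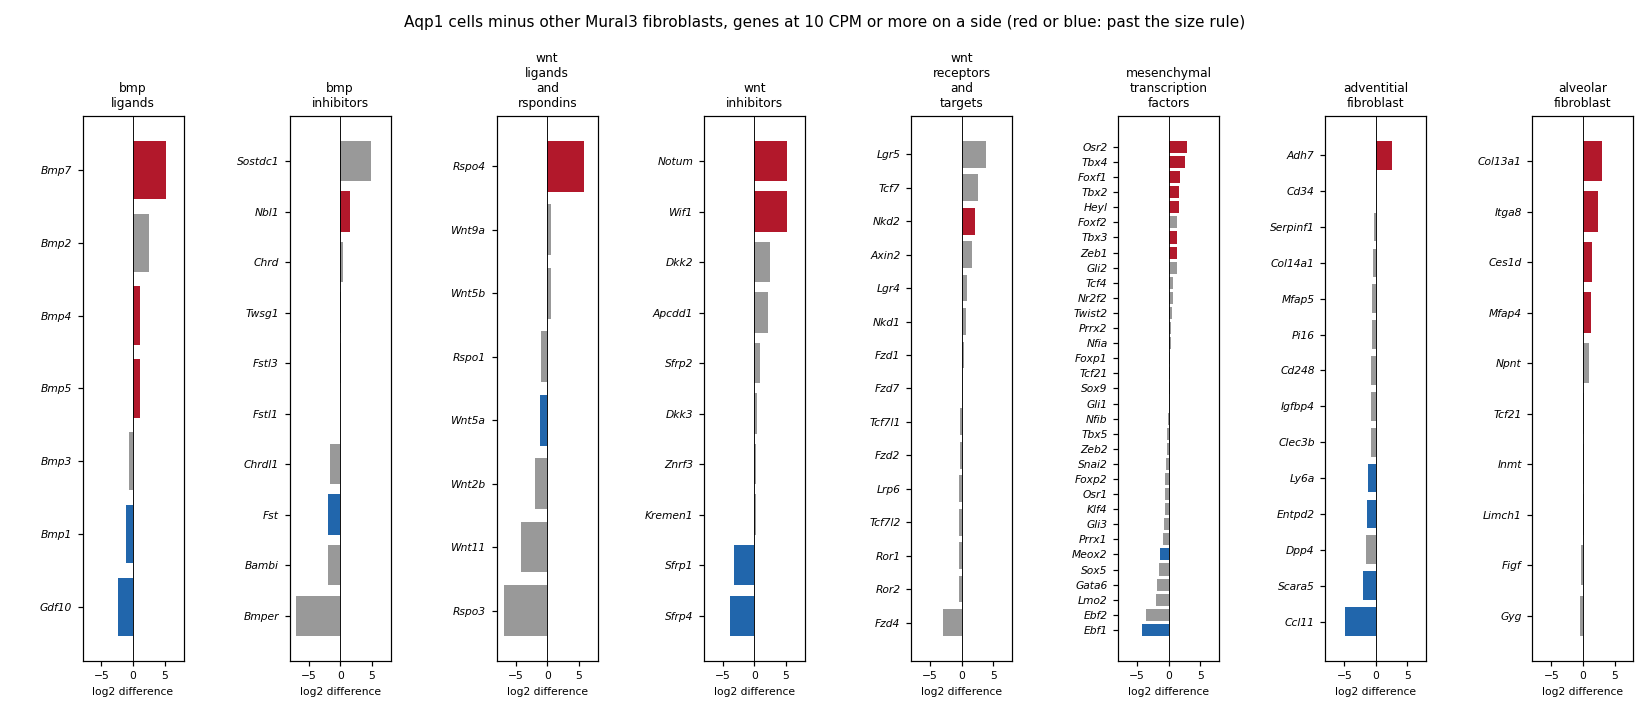
Log2 difference of summed CPM, Aqp1 cells minus the other Mural3 fibroblasts, for the genes shown of 8 lists, at 10 CPM or more on a side, with red or blue bars for genes past the size rule and grey bars for the rest. BMP ligands and WNT inhibitors each hold genes past the rule in both directions, and the 4 alveolar fibroblast genes past it were all higher.

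Because Aqp1 and the leading genes were higher together, their promoter windows were read from RefSeq (GRCm38.p6), 250 bases before to 50 after the RefSeq start. For Aqp1 that start lies before the GENCODE start given above, and so does the whole window. The table held windows for 9 of 16 genes, Aqp1 and the 15 with the largest folds. It held none for Notum, Bmp7, Lamc3, Gria1, Cacna1g, Osr2 or Aldh3a1, so these were not searched. The windows are shown for Aqp1 and for both leading genes whose window holds CTTTGA or its reverse complement TCAAAG, the core of the TCF/LEF motif of WNT signalling, in capitals. They lie at chr6:55336049-55336348 (plus strand), chr10:61979059-61979358 (minus strand) and chr10:115817034-115817333 (plus strand).
Aqp1: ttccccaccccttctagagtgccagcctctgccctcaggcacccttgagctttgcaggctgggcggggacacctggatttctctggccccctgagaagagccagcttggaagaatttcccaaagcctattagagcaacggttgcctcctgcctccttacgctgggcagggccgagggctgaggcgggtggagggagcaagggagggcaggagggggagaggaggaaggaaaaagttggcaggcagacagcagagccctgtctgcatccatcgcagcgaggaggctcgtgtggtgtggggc
Col13a1: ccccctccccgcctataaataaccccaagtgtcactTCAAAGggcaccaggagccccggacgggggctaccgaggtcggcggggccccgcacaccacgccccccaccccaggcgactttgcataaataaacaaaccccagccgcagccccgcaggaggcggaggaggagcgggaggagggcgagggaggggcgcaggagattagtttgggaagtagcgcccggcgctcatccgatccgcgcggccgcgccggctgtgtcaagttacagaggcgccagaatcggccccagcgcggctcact
Tspan8: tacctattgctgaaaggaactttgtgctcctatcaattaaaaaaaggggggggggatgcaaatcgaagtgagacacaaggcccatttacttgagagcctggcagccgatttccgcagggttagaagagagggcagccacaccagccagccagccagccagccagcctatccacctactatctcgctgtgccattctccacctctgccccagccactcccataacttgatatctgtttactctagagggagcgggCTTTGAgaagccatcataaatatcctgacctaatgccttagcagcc
These letters were present, on either strand, in 16.0% of all 32851 windows, in 10.8% of 251 windows of the genes called higher and in 12.3% of 122 windows of those called lower. The Aqp1 window does not hold them.

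Of 14 retinoid pathway genes, 1 was higher and 2 were lower, where 1.08% and 0.629% of all genes were. Lrat, which is not on that list and stores retinol as its ester, ran from 0 through 0 to 3736 CPM per Aqp1 cell, with a read in 18 of 53, and to 1065 CPM in the others, with a read in 14 of 260. The sums of 359 and 8.23 CPM differed 43.6-fold (40.5 to 47.0), and the log2 difference went from 5.45 to 6.44 without the highest cell of each side. Adh7, an alcohol dehydrogenase that also oxidises retinol and is not on that list either, was read in 48 of 53 Aqp1 cells with a median of 649 CPM and in 106 of 260 others with a median of 0, and its sums of 1020 and 168 CPM differed 6.06-fold (5.93 to 6.18). Aldh3a1, an aldehyde dehydrogenase, was 7.56-fold higher (7.21 to 7.92), at 227 against 30.0 CPM.

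The steps that make retinoic acid did not move as a group. Aldh1a1 was 2.54-fold higher, at 496 against 196 CPM, while Aldh1a2 and Aldh1a3 were lower, at 24.8 against 110 CPM and 6.34 against 115 CPM. A single cell gave 98.4% of the Aqp1 cells' Aldh1a3 reads. Without the highest cell of each side the log2 difference of Aldh1a3 went from -4.19 to -9.33, a value set by the minimum of 3 reads. That of Aldh1a2 went from -2.15 to -3.36. Of 22 detoxification and redox genes 5 were higher and 1, Cyp1b1, was lower, where 1.08% and 0.629% of all genes were. Cyp1b1, a cytochrome P450 of oestrogens and aryl compounds, was read in 6 of 53 Aqp1 cells and 138 of 260 others, and its sums of 6.75 and 203 CPM differed 30.1-fold (25.4 to 36.1).

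Of 40 mesenchymal transcription factors 7 were higher and 2 lower, where 1.08% and 0.629% of all genes were. Of the 40, 33 reached 10 CPM on a side. Tbx4, a T-box factor of lung mesenchyme, ran from 0 through 153 to 873 CPM per Aqp1 cell, with a read in 37 of 53, and from 0 through 0 to 680 CPM in the others, with a read in 80 of 260. It differed 5.80-fold (5.53 to 6.09), at 186 against 32.0 CPM. Its relatives Tbx2 and Tbx3 stood at 124 and 93.1 CPM against 40.2 and 37.3 CPM. Foxf1, a forkhead factor of lung mesenchyme and endothelium, was 3.44-fold higher at 117 against 33.8 CPM, and Osr2, a zinc finger factor, 7.82-fold higher at 106 against 13.5 CPM. Heyl, a Notch target, and Zeb1 were 2.94-fold and 2.43-fold higher.

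The 2 factors that were lower were Ebf1 and Meox2. Ebf1 was read in 7 of 53 Aqp1 cells and 134 of 260 others, and its sums of 4.05 and 74.7 CPM differed 18.5-fold (14.8 to 23.4). Meox2, a homeobox factor, stood at 58.7 and 151 CPM. None of 16 Hox genes passed, with Hoxa5 at 37.4 and 49.7 CPM. With the highest cell of each side left out the log2 difference of Ebf1 went from -4.21 to -5.49.

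Matrix genes differed in both directions. Spon1, a secreted F-spondin, ran from 0 through 1230 to 4443 CPM per Aqp1 cell, with a read in 48 of 53, against a median of 2.17 CPM in the others, with a read in 133 of 260. Its sums of 1320 and 256 CPM differed 5.16-fold (5.07 to 5.26). Of the membrane-spanning collagens, Col23a1 differed 5.55-fold (5.43 to 5.67), at 921 against 166 CPM, and Col13a1 8.51-fold (7.74 to 9.36), at 61.4 against 7.21 CPM. Col6a3, a collagen VI chain, was read in all 53 Aqp1 cells at 1462 against 605 CPM. None of 18 interstitial collagens was lower, with Col3a1 at 8830 and 13875 CPM.

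Of 18 elastic fibre genes 2 were higher and 1 lower, where 1.08% and 0.629% of all genes were. Of 19 basement membrane genes besides Col4a3 and Col4a4, 3 were higher and none lower, beside the same shares. Eln, which encodes elastin, stood at 1410 and 507 CPM, a 2.78-fold difference (2.74 to 2.82), with a median per cell of 963 against 180 CPM. Mfap4, which binds elastic microfibrils, stood at 3674 and 1576 CPM, with a median of 4099 against 565 CPM. Emilin2, an elastic fibre glycoprotein, was 4.91-fold lower (4.48 to 5.39) at 24.6 against 121 CPM, and its log2 difference went from -2.30 to -2.96 without the highest cell of each side. The collagen IV chains Col4a5 and Col4a6, which the rule did not use, stood at 330 and 174 CPM against 138 and 58.0 CPM, and Lamc3 at 368 against 33.2 CPM. Mmp2, a gelatinase, was read in all 53 Aqp1 cells and stood at 4844 against 2175 CPM. It was the only 1 of 23 proteases and inhibitors to be higher, where 1.08% of all genes were. Mmp3, Adamts5 (77.6 against 279 CPM) and Timp1 (201 against 506 CPM) were lower, where 0.629% of all genes were. The median log2 difference was -0.52 over the list.

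Of 26 proteoglycan and glycoprotein genes besides Dcn, 5 were higher and 6 lower, where 1.08% and 0.629% of all genes were. Smoc2 and Smoc1, calcium-binding matrix proteins, stood at 1477 and 120 CPM against 414 and 35.7 CPM. Fn1, fibronectin, was 6.03-fold lower (5.82 to 6.24), with a median of 1.96 CPM per Aqp1 cell against 326 CPM. Lum, lumican, was 2.88-fold lower at 747 against 2152 CPM. Aspn, asporin, passed as higher at 429 against 193 CPM, but 1 cell held 63.9% of its reads, and without the highest cell of each side its log2 difference went from 1.15 to -0.17. For Fn1 the same step moved it from -2.59 to -3.28.

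Several chemokine and complement genes were lower. Ccl11, eotaxin, which draws eosinophils, ran from 0 through 0 to 651 CPM per Aqp1 cell, with a read in 13 of 53, and from 0 through 686 to 4726 CPM in the others, with a read in 205 of 260. Its sums of 28.0 and 865 CPM differed 30.8-fold (28.3 to 33.6). Ccl8, another chemokine, was 60.1-fold lower (39.7 to 96.0) at 1.14 against 68.6 CPM. Il33 and Cxcl12 stood at 102 and 768 CPM against 351 and 1572 CPM. Of 21 chemokines and cytokines 4 were lower and none higher, where 0.629% of all genes were lower and 1.08% higher.

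The complement genes C2 and C3 were 7.63-fold and 2.21-fold lower, and none of the 15 on that list was higher. Among all genes 0.629% were lower and 1.08% higher. Lpl, lipoprotein lipase, was read in 12 of 53 Aqp1 cells and 186 of 260 others, and was 7.89-fold lower (7.44 to 8.37) at 59.9 against 472 CPM. Ptgs2, the inducible cyclooxygenase, stood at 33.6 and 243 CPM. The stromelysin Mmp3 stood at 506 and 2764 CPM, with 75.0% of the Aqp1 cells' reads in 1 cell. Leaving out the highest cell of each side moved the log2 differences of Ccl8, Ccl11, Cyp1b1, Lpl, C2, Ptgs2 and Mmp3 further down, to -8.18, -5.62, -6.34, -3.58, -3.82, -3.79 and -4.35 from -5.91, -4.95, -4.91, -2.98, -2.93, -2.85 and -2.45. With 53 cells on one side and 260 on the other, that step favours a fall.

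None of 16 immediate early and stress genes passed, with Fos at 2940 and 3346 CPM and Egr1 at 4213 and 3708 CPM. A pair of class 3 semaphorins, secreted guidance cues, were lower. Sema3c stood at 31.3 and 126 CPM. Sema3d stood at 5.19 and 132 CPM, with 99.0% of the Aqp1 cells' reads in 1 cell. Without the highest cell of each side its log2 difference went from -4.66 to -9.54, a value set by the minimum of 3 reads. Slit3, a guidance ligand, was 2.71-fold lower, while its receptor family member Robo2 was 2.29-fold higher and Itga8, an integrin chain, 5.11-fold higher (4.87 to 5.36).

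Surface receptors, channels and enzymes included several of the widest differences. Entpd1 (CD39), which breaks down extracellular ATP, ran from 0 through 137 to 1869 CPM per Aqp1 cell, with a read in 35 of 53, and to 874 CPM in the others, with a read in 32 of 260. It differed 12.6-fold (11.9 to 13.2), at 287 against 22.9 CPM, whereas Entpd2, which acts on the same substrate, was 2.61-fold lower at 293 against 765 CPM. F2r, the thrombin receptor, stood at 628 and 122 CPM and was read in 42 of 53 Aqp1 cells. Tnfrsf19, a receptor of the TNF family, was 6.29-fold higher (6.00 to 6.59).

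Growth factor and vasoactive receptors were higher where they passed. Fgfr3 and Fgfr2 stood at 180 and 70.5 CPM against 47.3 and 24.9 CPM, and Ntrk2, a neurotrophin receptor, at 400 against 196 CPM. Ntrk2 passed narrowly, with a log2 difference of 1.03. That value fell under the limit without the highest cell of each side (0.996), without the cells with endothelial markers (0.833) and without rows A to D (0.998). Tgfbr2 and Tgfbr1, the receptors of TGF-beta, stood at 1014 and 71.5 CPM against 439 and 32.3 CPM. Ednra, an endothelin receptor, was the only 1 of 40 vasoactive receptors to pass, at 291 against 124 CPM, where 1.08% of all genes were higher. The calcium channel genes Cacna1g and Cacna1d stood at 80.9 and 71.8 CPM against 8.00 and 17.0 CPM, and Gria1, a glutamate receptor subunit, at 93.4 against 9.05 CPM. Cybrd1, an iron reductase, stood at 64.4 and 3.11 CPM.

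Of the lists that name kinds of lung fibroblasts, the alveolar and adventitial ones gave opposite counts. Among all genes 1.08% were higher and 0.629% lower. Of 12 alveolar fibroblast genes 4 were higher (Col13a1, Itga8, Ces1d and Mfap4) and none lower, with a median log2 difference of 0.57 over the 10 at 10 CPM or more. Of 14 adventitial fibroblast genes 1 was higher, Adh7, and 4 were lower (Ccl11, Scara5, Entpd2 and Ly6a), with a median of -0.70. Scara5, a ferritin receptor, was 4.01-fold lower (3.92 to 4.10) at 393 against 1574 CPM. Pi16, an adventitial marker, remained abundant at 1234 against 1902 CPM. Inmt, a methyltransferase on the alveolar list, stood at 4603 and 4107 CPM and did not pass. The other 9 adventitial genes did not pass either. Of 10 airway or myofibroblast genes Aspn passed as higher and Mustn1 as lower, and Aspn went to -0.17 without the highest cell of each side. Their median log2 difference was 0.31 over the 7 at 10 CPM or more, with 5 above 0. Of 7 lipofibroblast genes only Lpl passed, as lower, with a median of -0.41 over the 4 at 10 CPM or more.

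The Aqp1 cells were also set against each of the other kinds. Against the 45 cells with Col4a3 and Col4a4, 425 genes were higher (1.94%) and 311 lower (1.42%), together 3.35%. Against the 215 with neither, 238 were higher (1.08%) and 135 lower (0.615%), together 1.70%. Both comparisons share the 53 Aqp1 cells, so no agreement between them is read.

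Some of the higher genes differed more widely from the cells with Col4a3 and Col4a4 than from the cells with neither. Col23a1 stood at 921 CPM against 26.7 CPM there and 194 CPM in the cells with neither. Cpxm2, a carboxypeptidase-like protein, stood at 147 CPM against 4.63 and 23.2 CPM, and Irf8, an interferon regulatory factor, at 171 CPM against 6.09 and 38.8 CPM. Crispld1, a secreted protein, stood at 105 CPM against 4.57 CPM there but 112 CPM in the cells with neither. On the lower side, Lrrn4cl had 2 reads in the Aqp1 cells (0.104 CPM) against 239 CPM in the cells with Col4a3 and Col4a4, a ratio of 2297 (635 to 18971), and Dio2, which activates thyroid hormone, stood at 0.363 against 210 CPM.

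Notum and Wif1 were lower in both other kinds. Notum stood at 140 CPM against 18.1 CPM in the cells with Col4a3 and Col4a4 and 1.22 CPM in the cells with neither, folds of 7.75 (6.85 to 8.78) and 115 (93.6 to 142). Wif1 stood at 168 CPM against 18.4 and 2.14 CPM. Of the 45 cells with Col4a3 and Col4a4, 3 had a Notum read and 2 a Wif1 read, and 1 cell, with 1767 CPM of Aqp1, held 716 CPM of Notum and 862 CPM of Wif1. Without it Notum stood at 6.64 CPM and Wif1 at 4.57 CPM there, folds of 21.1 and 36.8. Smoc2 stood at 1477 CPM against 1167 CPM in the cells with Col4a3 and Col4a4, where it did not pass, and 264 CPM in the cells with neither.

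The Aqp1 cells differed among themselves. Of the 15 genes with the largest folds, 0 to 14 were read per Aqp1 cell after thinning, with a median of 6, and 36 of 53 cells held 5 or more. These genes were picked for being higher, so their number is a description. Among the others the median was 0, and 6 of 260 held 5 or more. Notum and Bmp7 were both read in 15 Aqp1 cells, Notum alone in 7, Bmp7 alone in 5 and neither in 26. Lrat and Notum were read together in 14 cells, and Lrat without Notum in 2, whereas Lrat and Wif1 were read together in 6, Lrat alone in 10 and Wif1 alone in 8.

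Several of these genes ran with Aqp1. Over the 53 cells, Spearman's rho with Aqp1 was 0.64 for Lrat and for Spon1, 0.62 for Rspo4, 0.60 for Notum and 0.58 for Bmp7, but 0.33 for Wif1. For Dcn it was -0.54, for Ccl11 -0.34 and for Cldn5 -0.01. These values describe cells that share 1 sample and whose CPM share a total. Most of these genes were picked for differing between Aqp1 cells and others, or for their rho over cells that include these. The values are therefore descriptions. The 36 cells with 5 or more leading genes had a median of 2857 CPM of Aqp1 and 7420 CPM of Dcn, and the 17 with fewer had 746 and 22621 CPM. Their depths were 376788 and 364652 reads, by the median. Over all 313 Mural3 fibroblasts, the 10 genes of at least 50 CPM with the highest rho with Aqp1 included Notum (0.47), Aqp2 (0.45), Rspo4 and Spon1 (0.44), Entpd1 and Tnfrsf19 (0.41), F2r (0.39) and Bmp7 (0.38). Those values take in the split that the Aqp1 limit made: within the 53 cells rho was 0.16 for Aqp2 and 0.26 for Faim2.

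**Figure D4:**
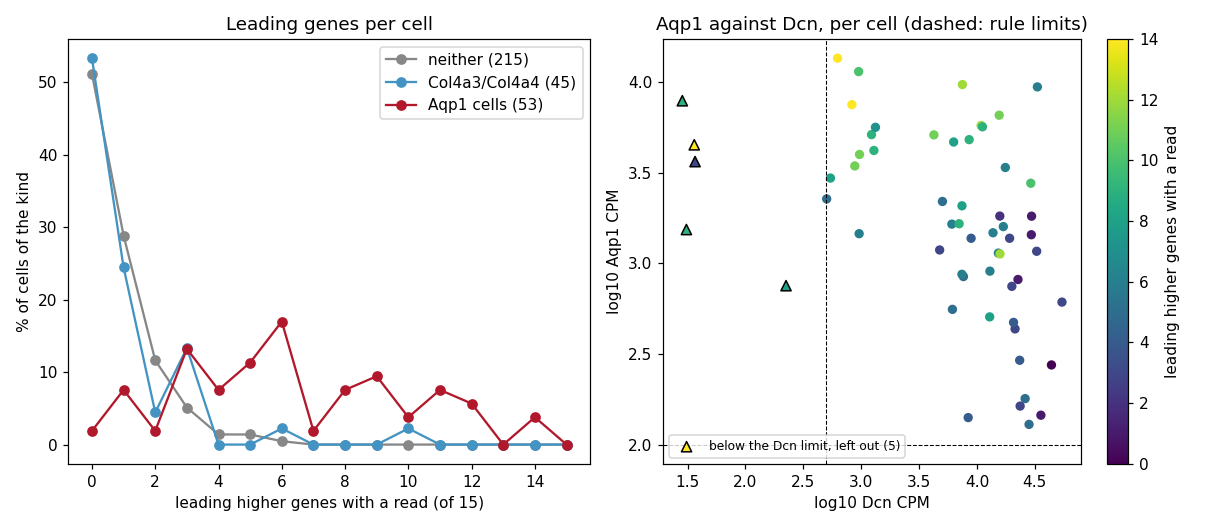
Left, share of cells of each kind (vertical axis, percent) by how many of the 15 leading higher genes had a read after thinning (horizontal axis). Right, Aqp1 against Dcn per cell, both as log10 CPM, coloured by that number, with triangles for 5 wells left out by the Dcn limit. Cells with more Aqp1 had less Dcn and more of the leading genes, which were picked for being higher in the Aqp1 cells.

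The same limits were then applied to Mural1 and Mural2, whose cells the choice had not used. They found 13 of 71 passing cells in Mural1 (18.3%, exact 95% interval 10.1% to 29.3%) and 12 of 57 in Mural2 (21.1%, 11.4% to 33.9%), next to 53 of 313 in Mural3 (16.9%, 12.9% to 21.6%). Aqp1 summed to 1237 and 1257 CPM in them. Each side is again 1 sample, and these groups are under the 20 cells needed for a call, so only values are given.

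Many of the genes lower in Mural3 were low there too. Of the 138, 135 reached 10 CPM on a side in Mural1 and 51.9% of those were at least 2-fold lower, against 24.6% of all genes. In Mural2 it was 46.7% of 137, against 19.1%. Cyp1b1 had no read in the Aqp1 cells of Mural1 and stood at 0.278 CPM in those of Mural2, against 207 and 221 CPM in the other fibroblasts. Ccl11 stood at 0.491 and 333 CPM against 688 and 1645 CPM, and C2 at 15.2 and 137 CPM against 251 and 479 CPM.

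The shares of the higher genes lay nearer to those of all genes. At least 2-fold higher were 23.1% of 216 in Mural1, against 18.3% of all genes, and 34.6% of 231 in Mural2, against 23.5%. Tbx4 stood at 87.9 and 206 CPM against 20.5 and 39.3 CPM, Col23a1 at 92.6 and 237 CPM against 15.0 and 34.1 CPM, and Lamc3 at 47.1 and 84.2 CPM against 12.9 and 16.0 CPM. Those 3 were higher in both sets.

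Other leading genes differed between the sets. Adh7 had no read in the Aqp1 cells of Mural1, against 53.8 CPM in its other fibroblasts, and stood at 150 against 26.6 CPM in Mural2. Notum stood at 292 against 208 CPM in Mural1 and at 106 against 11.7 CPM in Mural2. Wif1 was abundant on both sides in Mural1, at 4747 and 3755 CPM. Bmp7 stood at 2.21 and 8.89 CPM against 17.3 and 2.66 CPM, and Rspo4 had at most 0.556 CPM in either set. Spon1 was higher in Mural2 (529 against 230 CPM) and lower in Mural1 (48.4 against 293 CPM), and Eln lower in both (236 and 424 against 1309 and 968 CPM). The differences between sets were not tested.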

How the data were processed

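The authors deposited raw counts, in reads, for every gene in each cell. Their second table holds scores, which equal reads scaled to 500000 per cell and rounded (largest difference 0.5). STAR 2.4.2a and mm10 are named in the submitters' processing notes. The counting program and gene annotation are not given in the sources used here. Counts gave all results, and the deposited scores served in 1 alternative. Cells of a kind were summed and compared with no test, because the labels name no animal or plate: each side is 1 sample. Poisson and conditional exact intervals at 95% cover counting error only, not the spread between cells or animals. They take each read as independent, although reads carry no molecular identifiers. Clopper-Pearson intervals, for shares of cells, take each cell as independent although the cells of a set count as 1 sample. Folds and log2 differences used at least 3 reads a side to rank and call, and at least 20 cells a side. The 6 genes of the choosing rule and eGFP stayed out of counts. Genes named were the 15 of widest fold either way, 10 against each other kind, up to 4 of each of 47 lists, the rule's genes, and the 10 of highest rho with Aqp1. Other genes were named, after their values were seen, where a list's count was given. Some genes are not reported here by name. Unnamed, ribosomal and mitochondrial genes were counted only. Members and lists were chosen with earlier results of these data known. Scaling factors came from edgeR 4.0.16 (TMM) and DESeq2 1.42.0 (median ratio). Python 3.11.15, numpy 2.4.6 and scipy 1.17.1 did the rest, with the calling step tested on simulated data. Coordinates are GENCODE M21 on GRCm38.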

Additional observations from a re-analysis of the deposited data

Results flagged for a closer look

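Of the 61 Mural3 wells left out by the Dcn or epithelial limit, 22 held Aqp1 at or above 100 CPM, a signal in wells that no comparison used. Of these, 17 were over the epithelial limit, with a median of 44356 CPM of Sftpc and Scgb1a1 summed, and 11 of the 17 held 5 or more of the 15 leading higher genes. The other 5 were below the Dcn limit only, at 28.5 to 224 CPM of Dcn, with 752 to 7877 CPM of Aqp1 and 3 to 14 leading genes (median 9). One of these, at 4501 CPM of Aqp1 and 36.1 CPM of Dcn, held 600 CPM of Notum, 441 of Bmp7, 282 of Rspo4, 802 of Wif1 and 592 of Lrat.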

How the results depend on the processing

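No paired analysis was possible because the replicate numbers were given in accession order and no column names one. Of 18 alternatives, 16 were planned and 2 were chosen after seeing the data: leaving out the highest cell of each side, and leaving out the cell with Col4a3 and Col4a4 that had the most Aqp1. The number of members stayed between 45 and 54. Fold from the median of cells (with 1 CPM added) gave 741 higher and 421 lower genes against all others, 781 and 720 against the cells with Col4a3 and Col4a4, and 773 and 413 against those with neither. With no minimum level or share of cells the counts were 3059 and 3876, 3555 and 3862, and 3322 and 3696. Under every other alternative these 6 counts stayed within 1.5 times. Of 93 genes named and called against all others, all kept their direction under these 16, except that 34 had a median of 0 on both sides in the median of cells. Without the highest cell of each side Aspn reversed, at -0.17. TMM factors gave 174 higher and 166 lower genes against the cells with neither, 51.2% higher in place of 63.8%. With 1 sample a side, differences between animals or plates cannot be told apart from those between kinds of cells, and a gene without a read may still be expressed below the depth of these cells.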

Other observations

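A list of sterol synthesis genes was drawn up after the data had been seen, so its count is a description. Of 24 genes 7 passed the size rule as higher and none as lower, where 1.08% of all genes were higher, and the median log2 difference over the 20 at 10 CPM or more on a side was 1.39, against 0.09 over all genes. Sqle, squalene epoxidase, stood at 97.5 against 15.5 CPM, a 6.30-fold difference (5.88 to 6.75). Msmo1, which removes methyl groups from sterols, stood at 107 against 27.4 CPM, and Hmgcs1, an early step, at 120 against 44.3 CPM. Srebf2, the factor that drives these genes, stood at 250 against 121 CPM.

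Faim2 (chr15:99497012-99528165) and Aqp2 (chr15:99579055-99584547), near each other on chromosome 15, were both higher. Faim2 was read in 46 of 53 Aqp1 cells and 84 of 260 others and stood at 512 against 115 CPM. Aqp2, a water channel best known from the kidney, stood at 91.6 against 5.49 CPM and was read in 31 of 53 and 21 of 260 cells. After thinning both were read in 23 of 53 Aqp1 cells and Aqp2 alone in 3, and rho between them was 0.41. None of 20 other genes on a list of water channels and ion transporters, which does not hold Aqp2, passed.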
